A study of Mus musculus with 6 samples.

Results

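The enzymes described here place the N-, 2-O- and 6-O-sulfates on heparan sulfate, and their transcripts were measured in MLE-15 cells with and without PMA. The 8 genes are the N-deacetylase/N-sulfotransferases Ndst1, Ndst2, Ndst3 and Ndst4, the 2-O-sulfotransferase Hs2st1, and the 6-O-sulfotransferases Hs6st1, Hs6st2 and Hs6st3. They were found through the RefSeq accession in the name of each probe set. All 8 were measured, each by 1 probe set, among 909 named genes and 1246 probe sets in all. MLE-15 is a mouse lung epithelial line derived from a tumour of mice that carry the SV40 large T antigen under a surfactant protein C promoter, and both groups share this background. Of the 6 arrays, 3 came from control cells and 3 from cells stimulated with PMA, a phorbol ester and protein kinase C activator. The series design text gives 10 nM for 24 h and asks whether sulfotransferases are expressed and induced by PMA. The replicates carry the numbers 1, 2 and 3 in both groups, and no label ties them to separate cultures. The p-values therefore reflect the spread among these arrays alone, which may be technical.

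Heparan sulfate is a linear glycosaminoglycan attached to core proteins at the cell surface and in the extracellular matrix. As the chain grows in the Golgi, NDST enzymes remove acetyl groups from glucosamine and replace them with sulfate, which marks out the stretches that an epimerase and the 2-O-, 6-O- and 3-O-sulfotransferases then modify. The resulting sulfation pattern governs the binding of growth factors and chemokines. NDST1 and NDST2 are the widely expressed forms of the first enzyme, NDST3 and NDST4 have a more restricted expression, and a single gene encodes the 2-O-sulfotransferase.

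Values are RMA values on the log2 scale, in which 1 unit is a doubling of signal, and they do not rank transcripts of different genes because each probe set binds its target differently. The medians of the 6 arrays lay between 5.64 and 5.71. Control 1 and PMA 1, which share the replicate number 1, differed most from the other 4 arrays, and every result below is therefore given within replicate numbers or with the number named. Of the 13 listed lung epithelial markers 2 were measured: surfactant protein A, Sftpa1, lay below the lower quartile of all 6 arrays, and surfactant protein D, Sftpd, lay below the median of all 6. Without a detection call these values do not show whether a marker was present.

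The promoters of the members are shown as background to these genes, and no link between them and the array values was tested. RefSeq promoter entries (build GRCm38.p6) were found for 6 of the 8 members, with 8 entries in all. Ndst1 and Ndst4 had none. The 250 bases before the annotated start are printed 5′ to 3′ for 3 of the 4 members that were higher in number 1 and for Hs6st3, which was not, with GC boxes in capitals.
Hs6st1, chr1:36068150-36068399, plus strand: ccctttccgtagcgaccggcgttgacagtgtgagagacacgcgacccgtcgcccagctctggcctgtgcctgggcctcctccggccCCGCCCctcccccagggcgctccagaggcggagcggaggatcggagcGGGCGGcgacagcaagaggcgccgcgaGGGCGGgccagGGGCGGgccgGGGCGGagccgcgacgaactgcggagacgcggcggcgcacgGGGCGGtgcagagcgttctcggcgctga
Ndst2, chr14:20734563-20734812, minus strand: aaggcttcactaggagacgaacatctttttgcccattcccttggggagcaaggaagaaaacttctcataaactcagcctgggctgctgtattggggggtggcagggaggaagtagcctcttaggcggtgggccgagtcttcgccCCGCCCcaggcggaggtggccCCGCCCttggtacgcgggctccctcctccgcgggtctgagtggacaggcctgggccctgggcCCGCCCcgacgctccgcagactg
Hs2st1, chr3:144570217-144570466, minus strand: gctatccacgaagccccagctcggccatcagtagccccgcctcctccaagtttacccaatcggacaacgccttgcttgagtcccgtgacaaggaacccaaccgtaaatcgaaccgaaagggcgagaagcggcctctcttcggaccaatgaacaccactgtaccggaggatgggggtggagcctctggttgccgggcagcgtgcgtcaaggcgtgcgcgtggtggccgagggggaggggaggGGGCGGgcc
Hs6st3, chr14:119138015-119138264, plus strand: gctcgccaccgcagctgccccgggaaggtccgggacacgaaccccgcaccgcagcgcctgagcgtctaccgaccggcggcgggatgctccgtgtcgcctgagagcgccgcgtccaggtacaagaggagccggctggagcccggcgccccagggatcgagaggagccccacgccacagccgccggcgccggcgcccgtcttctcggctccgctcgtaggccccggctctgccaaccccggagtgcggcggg
The GC box was searched as GGGCGG and the phorbol ester response element as TGACTCA, each on both strands, and no match of one overlapped the other in these entries. The GC box occurred 6 times before the start of Hs6st1, 3 times before Ndst2 and 1 time before Hs2st1. It had 0 matches in the entries of Hs6st2, Hs6st3 and Ndst3, and 32.7% of all 32851 promoter entries held at least 1. CG dinucleotides numbered 37 for Hs6st1, 36 for Hs6st3, 21 for Hs2st1 and 15 for Ndst2. The Hs6st2 entries held 26 and 7, and those of Ndst3 held 3 and 1. The median entry had 6. The phorbol ester response element had 0 matches in all 8 entries, and it was present in 4.46% of all entries. A match is a description of these letters and says nothing about binding or about the differences between arrays. Ndst1, which had the largest number 1 difference of the 8 members, has no entry here. Hs6st2, Hs6st3 and Ndst3, which had no GC box match, lay above the array median on 0 arrays, and so did Ndst4, which has no entry. The values do not rank different genes, and a tie between GC boxes and signal was not tested.

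The N-deacetylase/N-sulfotransferase Ndst1 stood at 9.86, 8.84 and 8.77 in control arrays 1, 2 and 3 and at 9.86, 9.05 and 8.84 in PMA arrays 1, 2 and 3. Both number 1 arrays were about 1 unit above the others, and the control and PMA values overlapped. Ndst2, the other widely expressed NDST, stood at 7.99, 7.60 and 7.75 in control and at 8.12, 7.63 and 7.70 in PMA arrays. It had the same arrangement on a smaller scale, with both number 1 arrays highest. Ndst3 stood at 4.37, 4.37 and 4.38 in control and at 4.29, 4.44 and 4.28 in PMA arrays. Ndst4 stood at 4.15, 4.08 and 4.11 in control and at 4.32, 4.17 and 4.09 in PMA arrays. Neither gene separated the groups or the numbers, although PMA 1 was the highest of the 6 arrays for Ndst4.

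The 2-O-sulfotransferase Hs2st1, which acts mainly on iduronic acid, stood at 7.34, 7.10 and 7.07 in control and at 7.31, 7.18 and 7.14 in PMA arrays. Its number 1 arrays were again the highest in each group, by 0.13 units or more over any other array. The 6-O-sulfotransferase Hs6st1 stood at 9.03, 8.12 and 8.25 in control and at 9.09, 8.43 and 8.18 in PMA arrays. Number 1 was clearly the highest in both groups, and among numbers 2 and 3 the highest value, in PMA 2, was 0.31 above the lowest, in control 2. Hs6st2 stood at 3.32, 3.33 and 3.17 in control and at 3.17, 3.28 and 3.12 in PMA arrays. Hs6st3 stood at 4.56, 4.59 and 4.61 in control and at 4.73, 4.63 and 4.69 in PMA arrays, and it was the only member whose PMA arrays all lay above its control arrays. The values of Ndst4 and Hs6st2 lay below the lower quartile of all 6 arrays and those of Ndst3 below that of 4. Those of Hs6st3 lay below the lower quartile of 0 arrays, but also above the median of 0. Ndst1, Ndst2, Hs2st1 and Hs6st1 lay above the median of every array. No detection call was used, so no member is given as present or absent.

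**Figure D1:**
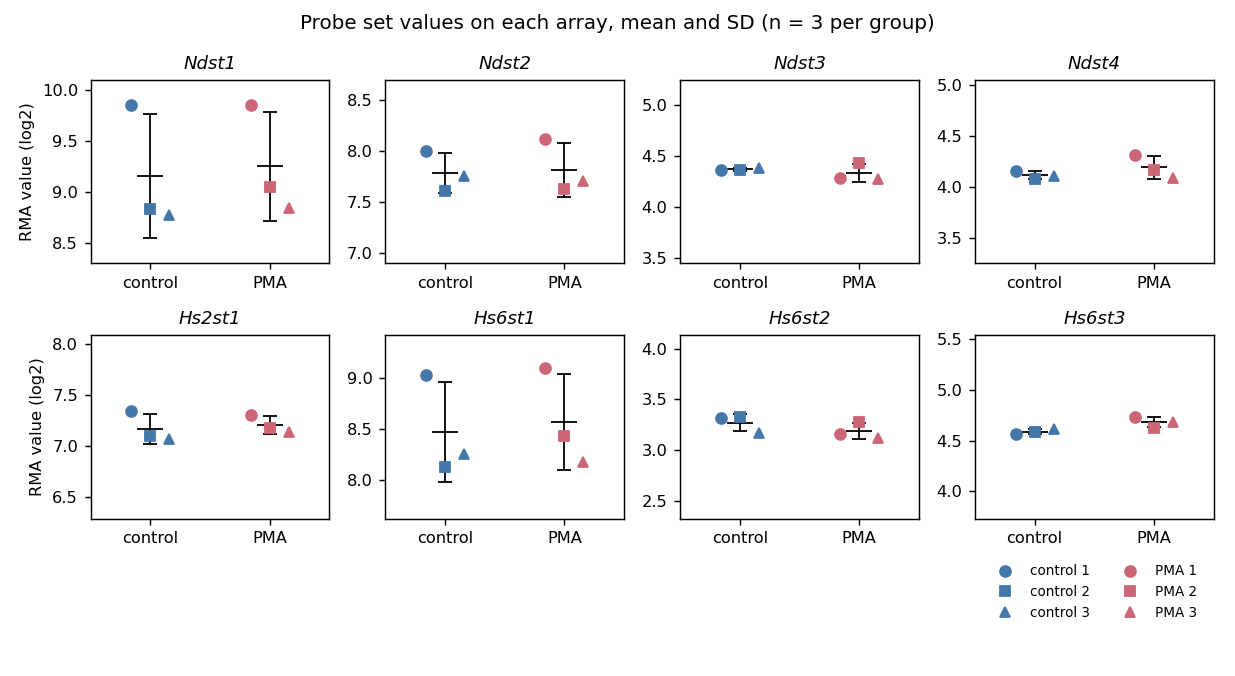
RMA values (log2) of the 8 genes on each array, control in blue and PMA in red, with circles, squares and triangles for replicate numbers 1, 2 and 3 and bars for the mean and SD of the 3 arrays of a group; each panel spans the same number of log2 units. Ndst1 and Hs6st1 show both number 1 circles about 0.6 units or more above every other array, with no such gap between control and PMA.

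The comparison of PMA with control asked whether the enzymes were induced. Called means an adjusted p under 0.05 (limma, Benjamini-Hochberg over all 1246 probe sets), and 0 of the 8 members and 0% of the probe sets were called. The count of members at an unadjusted p under 0.05 was 0, against 4 of all probe sets. With the replicate number as a block, 0 members and 0% of probe sets were called again, with 0 members and 42 of all probe sets at an unadjusted p under 0.05.

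Hs6st1 had the largest difference of the 8, from a mean of 8.47 ± 0.49 (SD, n = 3) in control to 8.57 ± 0.47 in PMA arrays, which is 0.099 log2 units (SE 0.34, limma adjusted p = 0.999). Its 3 pairs gave 0.063, 0.31 and -0.076, so that most of the mean came from pair 2. Ndst1 went from 9.16 ± 0.61 to 9.25 ± 0.54, a difference of 0.096 (SE 0.40), and its pairs gave 0.0021, 0.21 and 0.074. Hs6st3 differed by 0.094 (SE 0.058), from 4.59 ± 0.026 to 4.68 ± 0.052, and its pairs gave 0.17, 0.042 and 0.072. PMA and control arrays did not overlap for Hs6st3, an arrangement met by 1 of the 8 members and by 3.37% of all probe sets, 1.61% with PMA above and 1.77% with PMA below.

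The other members differed by less. Hs6st2 stood at 3.27 ± 0.086 and 3.19 ± 0.079, a difference of -0.086 (SE 0.077), and it was lower in all 3 pairs, at -0.15, -0.050 and -0.053. Ndst4 differed by 0.078 (SE 0.079), Ndst3 by -0.038 (SE 0.067), Hs2st1 by 0.037 (SE 0.099) and Ndst2 by 0.033 (SE 0.17). Each of these 4 genes had pairs of both signs. The mean was higher under PMA for 6 members and lower for 2, none of them called, and it was higher for 52.2% of all probe sets. The median of the 8 differences was 0.058, and that of all probe sets was 0.0033. All 3 pairs had the same sign for 3 of the 8 members, namely Ndst1, Hs6st3 and Hs6st2, and for 23.1% of all probe sets. Without PMA 1, or without control 2 or control 3, the difference of Ndst1 turned negative (-0.21, -0.063 and -0.097), the numbers being then unbalanced, and so did that of Hs6st1 (-0.16, -0.074 and -0.0085).

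How large an induction these arrays could have missed is given by the intervals of the difference. In the unblocked fit the 95% interval ran from -0.91 to 1.11 log2 units for Ndst1 and from -0.75 to 0.95 for Hs6st1, the widest of the 8, since the spread between numbers enters it. With the block it ran from -0.063 to 0.26 for Ndst1, from -0.090 to 0.29 for Hs6st1 and from -0.11 to 0.19 for Hs2st1. Across the 8 members the blocked bounds lay between -0.23 and 0.29, which is between 0.85 and 1.22 times the control signal. These bounds hold for the probe set signal on these arrays, and a dim probe set may show less than the change of its transcript.

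**Figure D2:**
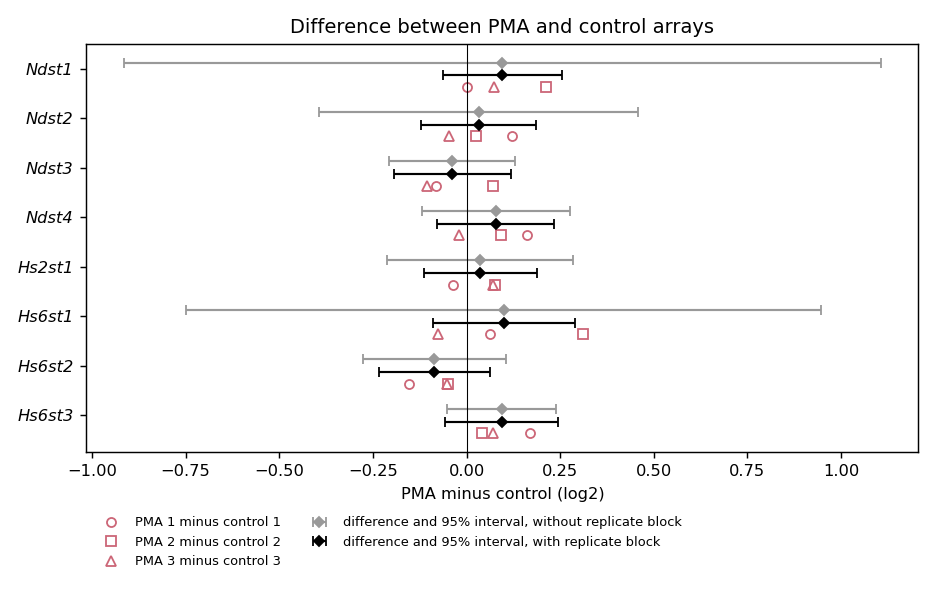
Difference between PMA and control arrays (log2) for each gene, with 95% intervals from the fit without (grey) and with (black) the replicate number as a block, and the 3 pairs as open red symbols. All intervals include 0, and the block narrows the interval of Ndst1 from -0.91 to 1.11 down to -0.063 to 0.26.

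Whether the PMA difference depended on the replicate number was tested with an interaction term. The PMA difference in number 1 minus that in numbers 2 and 3 was -0.14 (SE 0.16) for Ndst1, 0.13 (SE 0.14) for Ndst2, -0.11 (SE 0.13) for Hs2st1 and -0.054 (SE 0.18) for Hs6st1. The smallest adjusted p of the 8 members by limma was 0.843, for Ndst4 at 0.13 (SE 0.13). Over all probe sets 0.0803% were called in that test, which is 1 of 1246. With 1 array left out it called 2 (without PMA 2), 18 (without PMA 3), 5 (without control 2) and 9 (without control 3) of all probe sets, and 0 of the members each time.

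The comparison of replicate numbers called 4 of the 8 members. Ndst1, Hs6st1, Ndst2 and Hs2st1 were higher in number 1 than in numbers 2 and 3 by limma with PMA as a term, and the other 4 members did not pass. In the same test 27.5% of all probe sets were called higher and 14.1% lower, and among the 623 probe sets with a mean above the median, where all 4 called members lie, 37.7% were called higher. In either direction 41.7% were called, so the members shared a difference that ran through much of the table. With control arrays alone the same 4 members were called (all probe sets 39.3%, higher 25.8%, lower 13.6%). With PMA arrays alone Ndst1, Ndst2 and Hs6st1 were called (all probe sets 34.6%, higher 21.4%, lower 13.2%). The same 3 members were called against number 2 alone, where 36.8% of probe sets were called (24.2% higher, 12.6% lower), and against number 3 alone, where 38.7% were called (25.3% higher, 13.4% lower). The labels do not say what the number stands for. Their spelling does set number 1 apart, as MLE-15CTL and MLE-15PMA. Numbers 2 and 3 are written MLE15CTL or MLE15PMA, with an added A or B. These p-values compare these arrays only, 2 against 4.

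For Ndst1 the mean of the 2 number 1 arrays was 9.86 and that of the 4 others 8.88, whose values ran from 8.77 to 9.05. The difference was 0.98 log2 units (SE 0.080, adjusted p = 2.95e-06 by limma), or 1.98-fold with a 95% interval of 1.75 to 2.24. It was 1.05 among control arrays and 0.91 among PMA arrays, and it ranked 61 from the highest among the 1246 probe sets. Hs6st1 averaged 9.06 and 8.25, a difference of 0.81 (SE 0.086, limma adjusted p = 2.07e-05), or 1.76-fold (1.54 to 2.01). It was 0.84 among control and 0.79 among PMA arrays. For both genes the lowest number 1 array was above the highest of the other 4, by 0.81 for Ndst1 and by 0.60 for Hs6st1.

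Ndst2 averaged 8.05 and 7.67, a difference of 0.39 (SE 0.075, limma adjusted p = 0.00166), or 1.31-fold. It was 0.32 among control and 0.45 among PMA arrays. Hs2st1 averaged 7.32 and 7.12, a difference of 0.20 (SE 0.068, limma adjusted p = 0.0344), or 1.15-fold with a 95% interval of 1.04 to 1.28. The Hs2st1 call was lost when any 1 array other than PMA 2 was left out, with an adjusted p of up to 0.263 (without control 1), and when the array medians were subtracted (0.0899). Its number 1 arrays stayed above the other 4 in the deposited values, as did those of 4 of the 8 members in all. Number 1 was apart from the other 4 arrays in 55.9% of all probe sets, above them in 37.8% and below them in 18.1%.

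Ndst4 differed by 0.12 (SE 0.070, limma adjusted p = 0.183), Ndst3 by -0.041 (SE 0.072), Hs6st2 by 0.018 (SE 0.079) and Hs6st3 by 0.018 (SE 0.068). Their 95% intervals lay between -0.20 and 0.28. For Hs6st2, Hs6st3 and Ndst3 number 2 minus number 3 was 0.15, -0.045 and 0.069, each larger in size than the difference of number 1 from both. Across the 8 members the largest number 2 minus number 3 difference was that of Hs6st2 (SE 0.080), followed by 0.14 (SE 0.086) for Ndst1 and -0.11 (SE 0.083) for Ndst2. By limma 0 of the 8 members and 0% of probe sets were called in that comparison, with 0 members and 61 of all probe sets at an unadjusted p under 0.05. Without PMA 3 the call count over all probe sets was 1, again with 0 members.

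**Figure D3:**
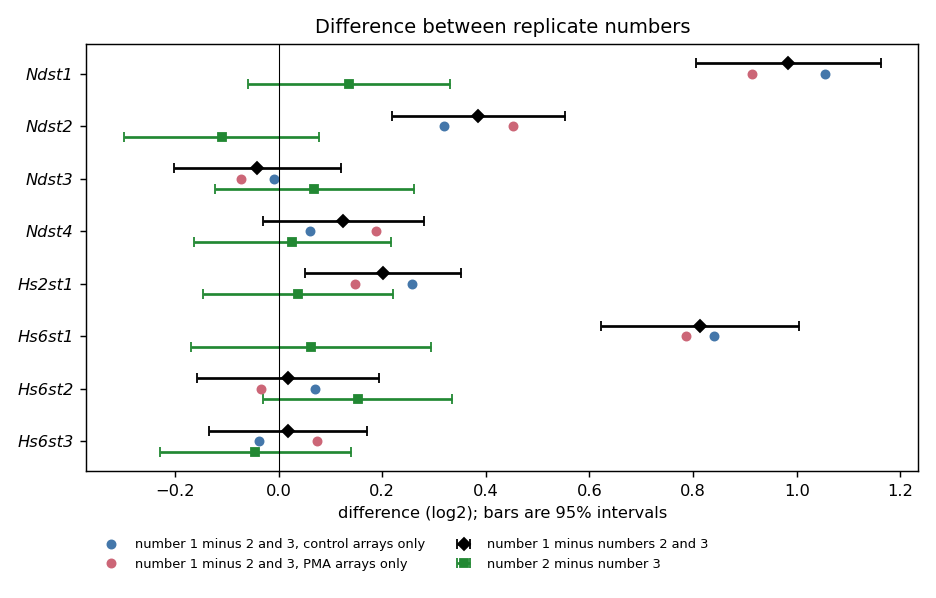
Difference between replicate numbers (log2) for each gene: number 1 minus numbers 2 and 3 in black and number 2 minus number 3 in green, both with 95% intervals, and the number 1 difference within control (blue) and within PMA arrays (red). The intervals of Ndst1, Ndst2, Hs2st1 and Hs6st1 lie above 0 for number 1, and all intervals of number 2 minus number 3 include 0.

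The sizes of these shifts were compared among the enzymes on the same array. The difference of 2 genes on 1 array removes a shift that is equal for both probe sets, but not one that differs between them. It was compared for the 6 pairs among the 4 members that lay above the median. Its shifts restate the number 1 differences above, taken from each other. Ndst1 minus Hs2st1 was 2.52 and 2.55 on the number 1 arrays and 1.70 to 1.87 on the other 4, a shift of 0.78 or 1.72-fold. Ndst1 minus Ndst2 was 1.86 and 1.74 against 1.02 to 1.42, a shift of 0.60 within the NDST family. Hs2st1 minus Hs6st1 was -1.69 and -1.79 against -1.26 to -1.02, a shift of -0.61 between the 2-O and 6-O enzymes. Ndst1 minus Hs6st1 moved least, from 0.63 to 0.80, a shift of 0.17. The number 1 arrays lay outside the range of the others in 5 of the 6 pairs, all but Ndst2 minus Hs2st1. The 6 pairs are made from 4 genes and are not independent. The share over all pairs of genes was not computed, and number 1 was apart in 55.9% of single probe sets. In each of those 5 the exact two-sided permutation p was 0.133, the smallest that 2 arrays against 4 allow, and 0.160 after Benjamini-Hochberg adjustment over the 6 pairs.

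The genes whose profile over the 6 arrays was most like that of Ndst1 were found by the root mean square difference after each gene's own mean was subtracted, over 908 other genes. Nearest were the ubiquitin ligase gene Huwe1 (0.070 log2 units), the α2,3-sialyltransferase gene St3gal3 (0.079) and Sdc4, which encodes the heparan sulfate proteoglycan syndecan-4 (0.080). Sdc4 was 1.07 log2 units (SE 0.065) higher in number 1, and its other 4 arrays ran only from 9.90 to 9.97. Huwe1 was higher by 1.01 and St3gal3 by 0.84. These genes were picked for their likeness to Ndst1, so a number 1 difference of similar size follows from the choice and is no separate result. Among the members Hs6st1 was the nearest to Ndst1 (0.10) and Ndst3 the farthest (0.49). The other members varied by less than 1 unit over the 6 arrays and were not compared in this way.

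Other genes of the pathway were taken from 9 lists of 74 genes, of which 59 were measured. In the PMA comparison limma called 0 of them, and 0 reached an unadjusted p under 0.05. The blocked fit also called 0, while 3 reached an unadjusted p under 0.05: the betaglycan gene Tgfbr3 at 0.19 log2 units, the chondroitin 6-O-sulfotransferase gene Chst7 at -0.18 and the growth factor gene Fgf2 at -0.19. In number 1 against numbers 2 and 3, 25 of the 59 were higher and 5 lower, with a median difference of 0.15 against 0.079 over all probe sets, of which 27.5% were called higher and 14.1% lower. With array medians subtracted 20 of the 59 were higher and 7 lower. Leaving out 1 array gave 17 to 27 higher and 4 to 5 lower, with the fewest higher without control 1.

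Upstream of the sulfotransferases, 4 of the 6 genes of chain polymerization and epimerization were higher in number 1 and 0 lower. Over all probe sets 27.5% were called higher and 14.1% lower. Ext1, a subunit of the heparan sulfate polymerase, averaged 9.28 against 7.28, a difference of 2.01 (SE 0.066, limma adjusted p = 3.25e-09). Its partner Ext2 differed by 0.63 (SE 0.071) and Extl3, which starts the chain, by 0.66 (SE 0.080). Of the 5 measured genes of the linker tetrasaccharide 0 were higher and 1 was lower, the galactosyltransferase gene B4galt7 at -0.26 (SE 0.078), a call lost without PMA 1 (-0.18) or without control 3 (-0.24). B3gat3 differed by 0.16 and B3galt6 by 0.15, neither past the test, and B3galt6 ran from 0.021 without PMA 1 to 0.28 without control 1. None of the 3 measured genes of sulfate donor supply passed: the donor synthases Papss1 and Papss2 differed by -0.17 (SE 0.068) and 0.15 (SE 0.094), and the transporter gene Slc35b3 by -0.048 (SE 0.077).

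The 3-O-sulfotransferases, which act last on the chain, went both ways, with 1 of 6 higher and 2 lower. The shares over all probe sets were 27.5% and 14.1%. Hs3st1 averaged 7.17 in number 1 and 8.28 in the others, a difference of -1.11 (SE 0.11, limma adjusted p = 1.47e-05), and Hs3st3a1 differed by -0.59 (SE 0.079). Hs3st6 differed by 0.53 (SE 0.074). Of the 4 genes that edit or cut finished chains outside the cell, the 6-O-endosulfatase gene Sulf2 was higher at 0.34 (SE 0.071) and the heparanase gene Hpse lower at -0.88 (SE 0.078). Sulf1 differed by 0.17 (SE 0.071) and did not pass. The Sulf2 call was lost without control 1 (0.29). Of the 4 measured genes of lysosomal breakdown, the N-sulfoglucosamine sulfohydrolase gene Sgsh was higher at 0.71 (SE 0.069) and the iduronidase gene Idua at 0.32 (SE 0.079), the latter not without control 1 (0.20). Naglu differed by 0.086 (SE 0.076), from 0.0058 without control 1 to 0.17 without PMA 1.

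Of the 13 measured core proteins, which carry the chains, 7 were higher in number 1 and 0 lower. The counts here stand beside 27.5% of all probe sets called higher and 14.1% called lower. The largest differences were in Tgfbr3, the TGF-β co-receptor betaglycan, at 2.98 (SE 0.087), in Col18a1, a basement membrane collagen, at 2.52 (SE 0.084), and in Agrn, agrin, at 1.08 (SE 0.069). Of the 11 growth factors and receptors that bind the chains, 3 were higher and 1 lower: Fgfr2 differed by 0.54 (SE 0.17), Fgf2 by 0.47 (SE 0.10) and Vegfa by -0.30 (SE 0.090). None of these last 3 calls held without control 1, where the differences were 0.11, 0.36 and -0.18, and Fgfr2 was not called without control 2 (0.50) or PMA 3 (0.53) either. Without PMA 1 Fgfr2 differed by 0.98. The sulfotransferases of chondroitin and dermatan sulfate, the other sulfated chain, were all higher, 7 of 7, led by the uronyl 2-O-sulfotransferase gene Ust at 1.71 (SE 0.089), Chst14 at 0.97 (SE 0.066) and Chst12 at 0.82 (SE 0.077).

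**Figure D4:**
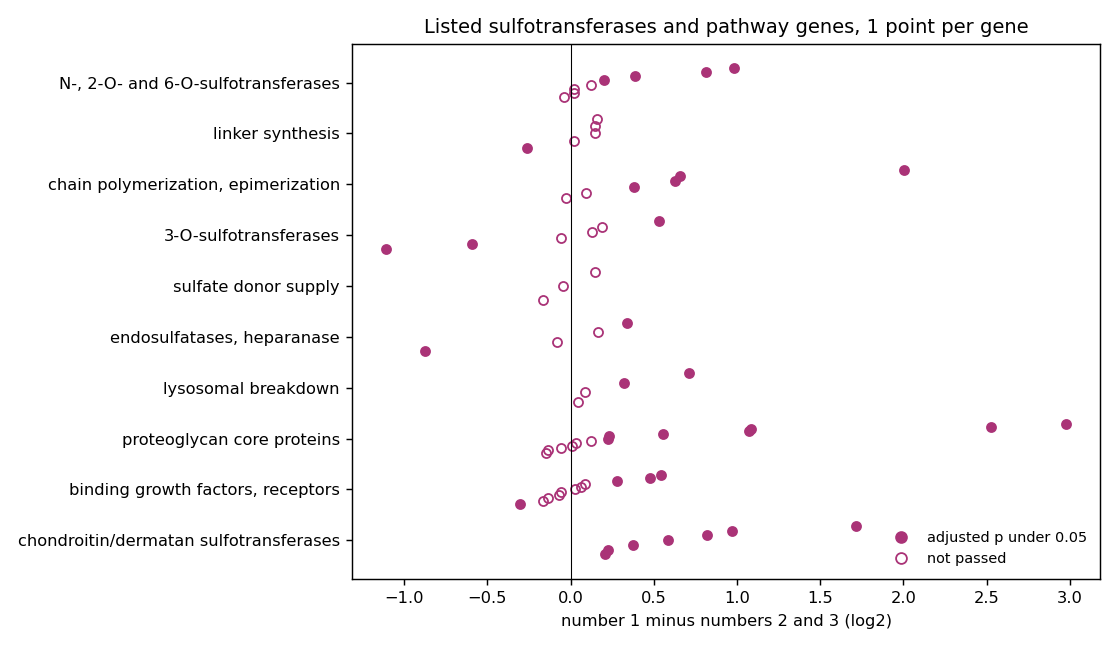
Number 1 minus numbers 2 and 3 (log2), 1 point per measured gene, for the 8 sulfotransferases in the top row and the other lists below, with filled points for an adjusted p under 0.05 by limma. Core proteins reach 2.98 and polymerization genes 2.01, and the 3-O-sulfotransferase and heparanase rows hold filled points below 0.

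Some markers of other cell types also differed between replicate numbers, where 27.5% of all probe sets were called higher and 14.1% lower. Of the 5 leukocyte markers measured of 10 listed, 2 were lower in number 1 and 0 higher: the chemokine receptor gene Ccr7 by -3.22 (SE 0.10) and the mannose receptor gene Mrc1 by -2.74 (SE 0.12). The other 3 did not pass, 2 of the 5 were above 0, and the median of the 5 differences was -0.030. The log2 of the list's summed signal, in which bright probe sets weigh most, was 6.95 to 7.18 in number 1 and 9.19 to 9.27 in numbers 2 and 3. Of the 6 endothelial and fibroblast markers measured of 10, 4 were lower and 0 higher, among them decorin, Dcn, by -2.31 (SE 0.23) and Pecam1 by -1.37 (SE 0.078). The other 2 were above 0 and did not pass. Their summed signal was 9.30 to 9.61 in number 1 and 10.77 to 11.52 in the others. Of the 2 lung epithelial markers Sftpa1 was higher by 0.52 (SE 0.069) and Sftpd did not pass at 0.13 (SE 0.077), with a summed signal of 5.87 to 5.91 against 5.61 to 5.79. The part of these differences in the results for Ndst1, Hs6st1, Ndst2 and Hs2st1 was not tested. Every array title names the MLE-15 line alone, and whether other cells were present was not tested. In bulk RNA fewer cells of a type and less RNA per cell cannot be told apart.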

How the data were processed

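RNA of MLE-15 cells was hybridised to 6 Affymetrix arrays (3 control, 3 PMA). The values deposited by the authors are on the log2 scale and come from RMA (background correction, quantile normalization and probe summary), per the submitters' processing notes. The RMA version is not given in the sources used here. Quantile normalization removes a change common to all transcripts. Of the 1246 probe sets, 963 were named through RefSeq accessions (GRCm38.p6 gene table). The probe set with the highest mean stood for a gene.

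Comparisons were fitted on the whole table with limma 3.58.1 in R 4.3.3 (lmFit, eBayes), two-sided, with Benjamini-Hochberg adjustment and a threshold of 0.05. SE is the moderated standard error. Where a group is left with 1 array, that array is assumed to vary like the others. The fits were run on simulated data with known changes. A pass was required only of the number 1 comparison and only for its larger changes, not of the PMA fits. The number of arrays limits the precision. Members and lists were chosen with earlier results of these data known, as was the comparison of numbers. All 8 members are named, and in each list the 3 genes with the largest number 1 difference and any gene called with PMA. Same-numbered arrays correlated across probe sets at 0.956, 0.815 and 0.912 in their deviations from the group means, over the 0.1 set for pairing. Control 2 minus 3 and PMA 2 minus 3 correlated at 0.041, so the pairing rests on number 1. Within-array differences, the share among brighter probe sets and alternatives for the interaction and for numbers 2 and 3 were added after seeing the data.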

Additional observations from a re-analysis of the deposited data

How the results depend on the processing

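With PMA, 0 members and 0 probe sets were called in every alternative run: the replicate block (0 called, smallest member adjusted p = 0.992 by limma), 1 term for number 1, number 1 left out of both groups, each array left out, dim probe sets left out (5 of the 8 members passed), subtracted array medians, a variance prior with an intensity trend, and the mean of a gene's probe sets. The sign of uncalled differences was less stable. Leaving number 1 out of both groups gave Ndst2 a difference of -0.011. Without 1 array the PMA difference ran from -0.21 to 0.45 for Ndst1, from -0.12 to 0.14 for Ndst2, from -0.015 to 0.12 for Hs2st1 and from -0.16 to 0.38 for Hs6st1, because the numbers are then unbalanced. It ran from 0.015 to 0.13 for Ndst4 and from -0.090 to -0.011 for Ndst3.

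In number 1 against numbers 2 and 3, Ndst1, Hs6st1 and Ndst2 were called in every alternative run. Hs2st1 was not called among PMA arrays only (0.15), with array medians subtracted (0.16), against number 2 (0.18) or number 3 (0.22) alone, or with the variance trend (0.20), and ran from 0.15 to 0.26 without 1 array. The uncalled Hs6st2 turned to -0.033 among PMA arrays, -0.021 with medians subtracted and -0.058 against number 2 (-0.033 to 0.070 without 1 array). Hs6st3 turned to -0.021 with medians subtracted, -0.038 among control arrays and -0.0042 against number 3 (-0.038 to 0.074 without 1 array). Without 1 array Ndst4 ran from 0.061 to 0.19 and Ndst3 from -0.073 to -0.0028. Papss2 was -0.064 among PMA arrays only and ran from -0.064 to 0.36 without 1 array. Slc35b3 was 0.071 among control arrays only and ran from -0.17 to 0.071. The count over all probe sets ran from 403 to 543 without 1 array. The interaction called 1 probe set, 0 with the variance trend and 2 to 18 without 1 array. Number 2 against number 3 gave 0 to 1. Why these values moved was not tested, beyond the imbalance named above. Signal over background is unknown, which limits Ndst3, Ndst4 and Hs6st2 most, and also Hs6st3.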
